A study of Homo sapiens with 24 samples.

Results

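The human genome holds, beside the transfer RNA (tRNA) genes that carry a standard name of amino acid, anticodon and number, many sequences that resemble tRNA genes. The features described here are the 260 of these tRNA-like genes among the 175946 non-coding features that the deposited count tables list, called members below. They are the features of the tRNA class outside the mitochondrial chromosome whose first name is not a standard tRNA name or begins with tRNA-Und, the prefix for an undetermined isotype. The rule reads names and chromosome only, but it was set with earlier results of these data known. The tables list 496 nuclear tRNA genes with a standard name and 22 tRNA genes of the mitochondrial chromosome, and both sets are given beside the members.

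Small RNA sequencing and ATAC-seq were done in HEK293, an established human embryonic kidney cell line whose genotype the labels give as wild type. ATAC-seq counts fragments that a transposase cuts out of open chromatin. The cells overexpressed enhanced green fluorescent protein (eGFP, the control group GFP) or 1 of the nuclear lamins LMNA, LMNB1 and LMNB2, which form the filament layer under the nuclear envelope. Each of the 4 groups had 3 replicate libraries per assay, 24 in all. The vector, the dose and the time of overexpression are not given in the labels used here. The labels do not say that replicates came from separate cultures, so the p-values measure the spread between these libraries, which may be technical. By its title, the study concerns RNA polymerase III, the enzyme that makes tRNA.

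A tRNA gene carries its promoter inside the transcribed sequence. The factor TFIIIC binds the internal A box and B box and brings TFIIIB to the DNA upstream, and TFIIIB recruits RNA polymerase III. Active tRNA genes are known for open chromatin at the gene and for a nucleosome-free body. Pseudogenes, partial copies and nuclear copies of mitochondrial DNA can look like tRNA genes to a sequence search without being used as such. Mitochondrial tRNAs are made by the mitochondrion's own RNA polymerase from long transcripts of both strands, with no A or B box.

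The members fall into 5 families by name. RNAcentral identifiers name 210 of them, and the table writes these with the prefix tRNA_tRNA_, left out below. The name tRX, which the genomic tRNA database gives to tRNA-like genes of low score, is carried by 29, each with the amino acid of the closest tRNA and the letters NNN in place of an anticodon. Ensembl identifiers of apes (chimpanzee ENSPTRG, orangutan ENSPPAG, gorilla ENSGGOG) name 14. The symbol NMTR, for nuclear-encoded mitochondrial tRNA, names 4, and tRNA-Und names 3. The tRX names point to Ala in 6 genes, to Asn, Cys, Ile and Lys in 3 each, to Gln, Glu, Leu and Val in 2 each, and to Asp, Ser and Tyr in 1 each.

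Many of the members lie at or near nuclear copies of mitochondrial DNA. Nuclear RefSeq genes with the symbol of a mitochondrial pseudogene, or with one that begins with NMTR or MTRNR2L, were listed. Of the 260 members, 146 lay within 2000 bp of a listed gene or shared an identifier with a mitochondrial tRNA or with such a member. They are called mitochondrial-like members here, and the remaining 114 are called other members. All 14 ape-named members were mitochondrial-like, as were 128 of the 210 RNAcentral-named ones, and none of the tRX or tRNA-Und members was. The 4 NMTR members were too, but the list itself held NMTR symbols, so this is no separate result. 6 members carried the identifier of a tRNA gene of the mitochondrial chromosome (MT-TL2 in 3, MT-TR in 2, MT-TQ in 1), and none shared an identifier with a standard tRNA gene.

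The 2 kinds of member also differed in their distance to standard tRNA genes. Of the 114 other members, 28 lay within 10 kb of a standard tRNA gene, and none of the 146 mitochondrial-like members did. 45 of the other members lay inside the span of a protein-coding gene and 17 inside that of a long non-coding RNA (lncRNA). No such count was made for the mitochondrial-like members. The counted intervals of the members were 105 to 226 bp long with a median of 121 bp, and 161 of the 260 overlapped another counted feature, 40 of them another member. Positions are those of the deposited tables on GRCh38, counted from 1, and include 25 bp beyond the gene on each side.

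A sequence shows how a member can depart from the standard gene it is named for. The RefSeq promoter windows (GRCh38.p14) cover the whole body of a single member, tRX-Asn-NNN-1-1, an asparagine-like gene at chr1:148317369-148317438 on the minus strand in the lncRNA locus LOC105371225. They also cover 14 standard tRNA genes, among them 2 asparagine genes, tRNA-Asn-GTT-4-1 at chr1:16889677-16889750 on the plus strand and tRNA-Asn-GTT-6-1 at chr1:143735920-143735993 on the minus strand. Below, each gene is written 5′ to 3′ on its own strand. The capitals mark the B box motif in the standard genes and the stretch closest to it in the member.
tRX-Asn-NNN-1-1: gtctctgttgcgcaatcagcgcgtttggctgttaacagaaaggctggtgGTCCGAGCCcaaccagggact
tRNA-Asn-GTT-4-1: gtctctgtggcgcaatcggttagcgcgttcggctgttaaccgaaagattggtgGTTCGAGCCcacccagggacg
tRNA-Asn-GTT-6-1: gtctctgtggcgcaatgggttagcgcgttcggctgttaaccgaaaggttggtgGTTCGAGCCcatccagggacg

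The 70-base member differed from each of these 74-base asparagine genes by 12 single-base changes, insertions or deletions, against 32 to 42 for the other standard genes. The B box motif searched was GTTCNANNC, on both strands. It was present in the sense strand of all 14 standard genes and on neither strand of the member, whose closest stretch departs from it by T3C, counted from 1 at the motif's 5′ end. Of 35116 RefSeq promoter windows cut to 70 bases, 1.74% held the motif on either strand. The A box motif searched, TGGCNNAGT, was on neither strand of the member and in 0 of the 14 standard genes, so it does not separate them. A match or its absence describes these letters only.

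The same 3 genes differed in both assays in GFP cells. tRX-Asn-NNN-1-1 had 0 small RNA counts in all 12 libraries, which allows at most 0.0258 CPM (counts per 1000000 of the TMM-scaled library total) in the GFP library with the smallest effective size (3 counts, counting error only). tRNA-Asn-GTT-4-1 had small RNA levels of 2.28, 1.35 and 1.48 CPM in GFP replicates 1, 2 and 3, and tRNA-Asn-GTT-6-1 had 1.10, 0.720 and 1.47 CPM. The ATAC window of tRX-Asn-NNN-1-1 held 4, 8 and 12 counts in the 3 GFP libraries, or 0.0253, 0.0469 and 0.0620 CPM. The window of tRNA-Asn-GTT-4-1 had 1.33, 1.501 and 1.08 CPM, and that of tRNA-Asn-GTT-6-1 had 2.22, 2.25 and 2.14 CPM. All 3 GFP libraries of each standard gene lay above all 3 of the member in both assays.

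The libraries were deep, and some stood apart. Total counts ran from 132507051 to 195074742 per small RNA library and from 156043245 to 290158229 per ATAC library. The TMM factors, which scale the totals, ran from 0.631 in GFP replicate 1 to 1.31 in GFP replicate 3 for small RNA, so the GFP libraries were the least alike in that assay, and from 0.879 to 1.09 for ATAC. The mitochondrial chromosome took 39.9 to 47.5% of ATAC counts in GFP and 39.4 to 44.1% in LMNA, and its share was 32.8 to 34.1% in LMNB1 and 24.5 to 30.7% in LMNB2. Features over the overexpressed gene were higher than in GFP in ATAC for all 3 lamins (LMNA 3834 to 4970 against 22.9 to 31.4 CPM of the unscaled total in GFP). They took 0.383 to 0.497% of ATAC counts in LMNA, 4.28 to 5.71% in LMNB1 and 13.4 to 17.5% in LMNB2. Shares of total counts, and scaling by total counts, include them. In small RNA such features were higher than in GFP for LMNB1 and LMNB2, but not for LMNA (0.0527 to 0.144 against 0.0663 to 0.114). Of 8 microRNAs chosen as present in HEK293, 7 had a median of at least 1 CPM, and none of 16 microRNAs of other cell types did, the highest of these at 0.380 CPM.

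Few of the tRNA-like genes gave small RNA in control cells. In GFP, 25 of the 260 members (9.62%) had a mean level of at least 1 CPM, against 366 of the 496 standard tRNA genes (73.8%). Of the members, 101 had no count in any GFP library and 77 had none in any of the 12 libraries, against 6 and 4 standard genes. Per kb of counted interval, the median member was at 0.0307 CPM per kb, the median standard gene at 38.3 and the median mitochondrial tRNA at 145. The medians of the standard genes in the 3 GFP libraries were 34.7, 22.2 and 48.0 CPM per kb, so the distance between members and standard genes was far larger than the spread between libraries. Summed over all members, the small RNA level was 192 ± 25.2 CPM (SD, n = 3) in GFP, against 10830 ± 2390 CPM over the standard genes. No test was made of members against standard genes, since genes are not replicates.

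**Figure D1:**
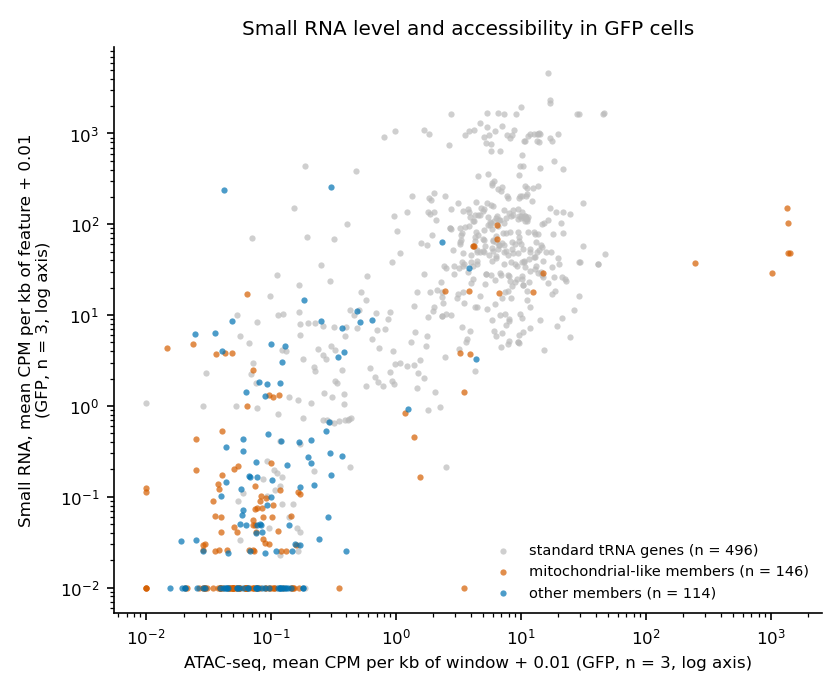
Small RNA level (vertical axis, mean CPM per kb of feature plus 0.01) against ATAC-seq level (horizontal axis, mean CPM per kb of window plus 0.01) in the 3 GFP libraries, both axes logarithmic, with a point for each of 496 standard tRNA genes, 146 mitochondrial-like members and 114 other members. Most members sit at the lower left, a few mitochondrial-like members overlie the standard genes, 5 on chromosome 1 stand at the far right beyond all standard genes, and 2 tRX genes sit high on the small RNA axis at the left.

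The small RNA that the members did give was concentrated. The 6 members with the highest CPM, all named below, held 58.4% of the members' CPM in GFP. By kind, 16 of the 146 mitochondrial-like members and 9 of the 114 other members reached 1 CPM, with sums of 102 ± 8.36 and 90.3 ± 16.8 CPM. By family, 12 of the 14 ape-named members reached 1 CPM and had a median of 33.2 CPM per kb, near that of standard genes. Of the 29 tRX genes 3 reached it, of the 210 RNAcentral-named members 10, and of the NMTR and tRNA-Und members none. Among the other members, the 28 within 10 kb of a standard tRNA gene had a median of 0.267 CPM per kb with 5 at 1 CPM or more, and the 86 farther away had a median of 0.0273 with 4.

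tRX-Cys-NNN-4-1, a cysteine-like gene at chr7:149628128-149628260 on the plus strand, had the highest level. It lies 7401 bp from tRNA-Cys-GCA-5-3, a standard cysteine tRNA gene. The small RNA level in its GFP libraries was 47.5, 37.4 and 17.1 CPM. The LMNA libraries had 25.5, 29.2 and 31.2 CPM, the LMNB1 libraries 22.6, 36.4 and 25.98 CPM, and the LMNB2 libraries 20.7, 21.6 and 24.3 CPM. The GFP libraries enclosed all the others, and GFP replicate 3 was the lowest of all 12. The log2 fold change in LMNB2 was -0.61 (SE 0.298, adjusted p = 0.262 by edgeR's quasi-likelihood test).

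The second was tRX-Glu-NNN-2-1, a glutamate-like gene at chr1:121000963-121001085 on the minus strand, 5584 bp from tRNA-Asn-GTT-19-1. The GFP libraries had 29.5, 26.1 and 31.7 CPM and the LMNA libraries 37.6, 38.5 and 32.0 CPM. The LMNB1 libraries had 38.8, 30.3 and 34.4 CPM and the LMNB2 libraries 33.2, 29.7 and 32.7 CPM. The 3 LMNA libraries lay above the 3 GFP libraries, with a log2 fold change of 0.31 (SE 0.203, adjusted p = 0.908 by edgeR). The gene lies within intervals of the lncRNAs LINC00623, on the other strand, and lnc-FAM72B-19, on its own strand. The LINC00623 intervals, 88345 to 96036 bp long, had 29.42 to 29.45 CPM each in GFP, close to the member's own level. The lnc-FAM72B-19 interval of 66526 bp had 79.4 CPM. How counts were shared among these, and whether strand was used, is not given. The ATAC window of tRX-Glu-NNN-2-1 held 4, 0 and 2 counts in the 3 GFP libraries.

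Per kb, the next 4 were 2 pairs of ape-named members, each pair with a copy on chromosome 1 and one on chromosome 21. They are mitochondrial-like, and the neighbours at each place overlap each other. On chromosome 1, ENSPTRG00000042655.1 (chr1:630971-631086, minus strand) was at 19.8, 19.2 and 14.1 CPM in GFP and ENSPTRG00000042629.1 (chr1:630906-631021, minus strand) at 13.2, 11.7 and 10.8 CPM. Neither passed the test in a lamin group, with the largest log2 fold change at 0.25 (SE 0.198, adjusted p = 0.921 by edgeR) for ENSPTRG00000042655.1 in LMNA. Its LMNA libraries, at 21.1, 20.3 and 21.9 CPM, lay above all 3 GFP libraries.

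**Figure D2:**
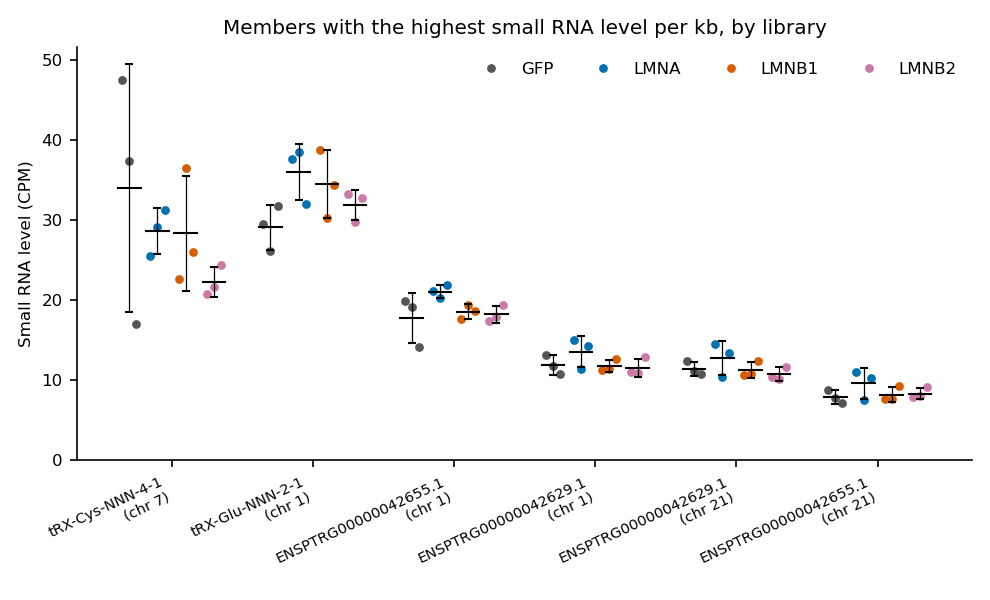
Small RNA level in CPM (vertical axis, from 0) in each library for the 6 members with the highest GFP level per kb, with points for libraries and bars for the mean and SD (n = 3) of each group. The 3 GFP libraries of tRX-Cys-NNN-4-1 spread from 17.1 to 47.5 CPM, while for the other 5 members the group means stay close to each other.

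A few more of the other members, away from mitochondrial copies, had a mean of at least 1 CPM in GFP. URS00006A6DD2 (chr6:27293867-27293990, plus strand), 1417 bp from tRNA-Gln-CTG-5-1, was at 13.1, 5.00 and 5.75 CPM in GFP and at 15.3, 10.9 and 12.1 in LMNA. It was at 7.57, 8.60 and 7.67 CPM in LMNB1 and at 9.55, 9.18 and 9.12 in LMNB2, within the GFP range. It lies in an SRP RNA interval of 185584 bp on its own strand (162.5 CPM in GFP). tRX-Tyr-NNN-1-1, a tyrosine-like gene (named, like the next gene, after its values were seen), was at 2.22, 0.639 and 0.789 CPM in GFP and at 2.89, 1.94 and 2.14 in LMNA. In both genes GFP replicate 1 stood well above the other 2 GFP libraries. URS00006366D8 (chr1:148353536-148353657, plus strand) was at 6.11, 2.64 and 3.30 CPM in GFP, again with replicate 1 highest. It lies in LINC01138 intervals of 98136 and 169121 bp on the other strand (58.95 and 59.25 CPM in GFP). How counts were shared among overlapping features is not given. Only 3 other members and 8 mitochondrial-like members lay above the standard median of 38.3 CPM per kb.

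The tRNA-Und genes gave next to no small RNA. tRNA-Und-NNN-5-1 on chromosome 17, inside the gene ARSG, and tRNA-Und-NNN-2-1 on chromosome 8, inside POP1, had 0 counts in all 12 libraries. tRNA-Und-NNN-1-1 (chr6:26749174-26749297, minus strand), 589 bp from tRNA-Ala-AGC-21-1, was at 0.137, 0.118 and 0.394 CPM in GFP and at 0.109, 0.0512 and 0.121 in LMNB2. The groups overlapped, with a log2 fold change of -1.17 (SE 0.465, adjusted p = 0.194 by edgeR).

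Most members were also less accessible than most standard genes. The ATAC window of a feature is 125 bp wider on each side than its small RNA interval. In GFP the median member had 0.0665 CPM per kb of window and the median standard tRNA gene 5.06. No other member lay above the standard median and 4 lay above the standard lower quartile of 0.995 CPM per kb, whereas 11 mitochondrial-like members lay above the median. Fewer of the cells being open at a site and less opening per cell cannot be told apart in these bulk libraries. A window was called above its flanks where its count density was at least 2 times that of the 5000 bp flanks on both sides. This held for 44 of 260 members (26 mitochondrial-like and 18 others) and for 407 of 496 standard genes. The median ratio was 0.850 for members and 7.23 for standard genes. The counts of members above their flanks were 52, 39 and 48 in LMNA, LMNB1 and LMNB2.

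**Figure D3:**
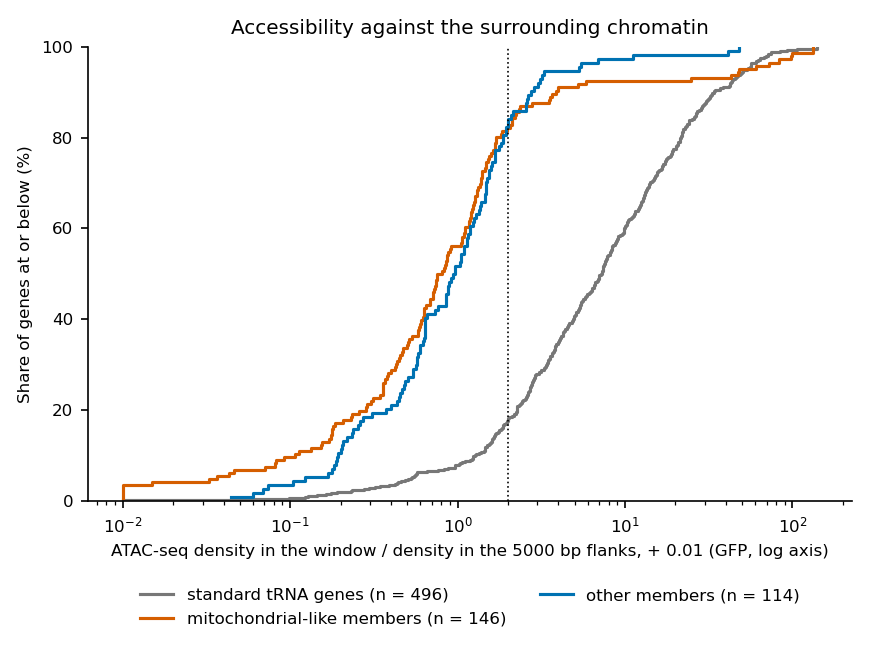
Cumulative share of genes (vertical axis, %) at or below each ratio of ATAC-seq density in the window to that in the 5000 bp flanks plus 0.01 (horizontal axis, logarithmic) in GFP, for 496 standard tRNA genes, 146 mitochondrial-like and 114 other members. The dotted line marks a ratio of 2, which most members lie under and most standard genes lie beyond; the standard median is 7.23 and the member median 0.850.

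The most accessible other member was tRX-Ala-NNN-5-1, an alanine-like gene at chr6:57813465-57813587 on the minus strand, 2361 bp from tRNA-Ala-AGC-24-1 (named after its values were seen). Its window was at 1.67, 1.88 and 1.36 CPM in GFP and 41.4 times its flanks, near the standard median per kb (4.38 CPM per kb of window). Its small RNA level was low, at 0.266, 0.243 and 0.710 CPM. URS00006366D8 was at 1.61, 1.47 and 1.20 CPM of ATAC counts, 47.9 times its flanks. tRX-Cys-NNN-4-1, with the highest small RNA level, did not stand above its flanks: its window held 25, 22 and 10 counts (0.158, 0.129 and 0.0516 CPM), 0.244 times its flanks.

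The 2 assays together marked few members. Among other members, 4 were both at 1 CPM or more of small RNA and above their flanks, 5 were detected without standing above them, 14 stood above them without being detected, and 91 did neither. Among mitochondrial-like members the counts were 12, 4, 14 and 116. Windows of few counts weigh on this: with a mean of at least 10 counts in the window asked for as well, 34 members and 397 standard genes stood above their flanks.

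5 mitochondrial-like members within a stretch at the start of chromosome 1 held 94.8% of the members' ATAC CPM in GFP. They are URS00005E40B1 (chr1:629408-629526), ENSPPAG00000000008.1 (chr1:629474-629595), ENSPTRG00000042652.1 (chr1:629547-629664), ENSPTRG00000042629.1 and ENSPTRG00000042655.1. ENSPPAG00000000008.1 carries the identifier of MT-TQ, the mitochondrial glutamine tRNA, and had the highest ATAC level of all members, at 420, 605 and 563 CPM in GFP. The 5 windows had 1020 to 1422 CPM per kb, between the standard median of 5.06 and the mitochondrial tRNA median of 5930. The sixth, ENSGGOG00000024031.1 (chr11:10509164-10509282, minus strand), was at 82.6, 100.4 and 93.7 CPM in GFP and 60.7 times its flanks.

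Copies with the same identifier were closer, as a ratio, in small RNA than in ATAC in some sets, but not in all. In some of these sets the copies were apart in small RNA as well. ENSPTRG00000042629.1 was at 11.9 ± 1.23 CPM of small RNA (SD, n = 3) on chromosome 1 and at 11.4 ± 0.880 CPM on chromosome 21, with ATAC levels of 502 and 2.36 CPM. ENSPTRG00000042655.1 differed in both, at 17.7 ± 3.11 and 7.91 ± 0.824 CPM of small RNA and at 493 and 2.36 CPM of ATAC counts. The 3 members with the identifier of MT-TL2, all named ENSPTRG00000042632.1, were at 2.24, 2.23 and 2.18 CPM of small RNA and at 0.915, 1.44 and 4.61 CPM of ATAC counts. ENSPTRG00000042652.1 was at 5.66 CPM of small RNA on chromosome 1 and 0.156 CPM on chromosome X. Its ATAC levels there were 511 and 0.0394 CPM, the latter from a mean of 6.667 counts. The 2 copies of ENSPTRG00000042659.1 went the other way, at 1.99 and 0.0141 CPM of small RNA and 2.435 and 0.0237 CPM of ATAC counts. The lower copy had means of 2.333 and 4.0 counts. So did the 3 copies of URS0000636A63, all of few counts, at 0.0272 to 0.0479 CPM of small RNA and 0.0585 to 0.0744 CPM of ATAC counts. How reads that map to several places were counted is not given in the sources used here, so reads of copies with near-identical sequence, and of the mitochondrial tRNA they resemble, cannot be told apart. MT-TL2 itself was at 176 ± 59.4 CPM and MT-TQ at 8.68 CPM of small RNA in GFP.

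The lamin comparisons asked whether the members' small RNA or accessibility changed with an overexpressed lamin. 64 members (32 of each kind) had enough counts to be tested in small RNA and 109 (49 mitochondrial-like, 60 other) in ATAC, against 462 and 480 standard genes. The remaining members were too low in most libraries for a test. Each lamin was set against the same GFP libraries, so the 3 comparisons are not independent of each other. A member was called at a Benjamini-Hochberg adjusted p under 0.05, taken over all tested features, in edgeR's quasi-likelihood test.

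A single member passed the test in small RNA, and none in ATAC. With LMNB2, 1 of 64 members was called, a share of the same order as the 2.66% of all 33893 tested features, and 3 of 462 standard genes were. At an unadjusted p under 0.05 there were 9 members with LMNB2, against 19.9% of all features. With LMNA no member was called, where 0.0% of all features were, and 5 had an unadjusted p under 0.05 (background 5.46%). With LMNB1 none was called (0.0384% of all features), and 12 had an unadjusted p under 0.05 (5.51%). In the joint test among the 3 lamins none was called (1.93% of all features), and 9 had an unadjusted p under 0.05 (16% of all features). In ATAC no member was called with LMNA, LMNB1 or LMNB2 or in the joint test, where 0.000611%, 0.00305%, 0.00244% and 0.0916% of 163786 windows were, and 6, 17 and 22 members had an unadjusted p under 0.05 with LMNA, LMNB1 and LMNB2 (5.19%, 4.78% and 5.72% of windows). In the joint test 20 members had an unadjusted p under 0.05 (6.24% of windows). DESeq2 called 1 member in ATAC with LMNB1 (0.0379% of all windows), 6 with LMNB2 (0.0708%) and 7 in the joint test (1.03%).

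The called member was ENSPTRG00000042659.1 at chr5:134928302-134928416 on the minus strand, mitochondrial-like, inside the gene PCBD2 and with the identifier of MT-TR, the mitochondrial arginine tRNA. It overlaps lnc-PITX1-4 intervals on its own strand, by 50 bp of a 347 bp interval (1.99 CPM of small RNA in GFP) and 31 bp of a 1686 bp one (3.65 CPM). It also lies in an SRP RNA interval of 252483 bp on the other strand (14.8 CPM). How counts were shared among these is not given. The values of ENSPTRG00000042659.1 follow. Its small RNA level was 1.91, 1.64 and 2.42 CPM in GFP (222, 223 and 430 counts) and 1.16, 0.915 and 1.04 in LMNB2. It was 1.73, 1.17 and 1.82 CPM in LMNA and 1.35, 1.38 and 1.87 in LMNB1. All 3 LMNB2 libraries lay below all 3 GFP libraries, while the LMNA and LMNB1 libraries overlapped GFP. It fell by 0.93 on the log2 scale with LMNB2 (SE 0.208, adjusted p = 0.031 by edgeR).

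The call depends on each LMNB2 library and on the scaling. Without LMNB2 replicate 1, 2 or 3 the adjusted p was 0.0851, 0.161 and 0.119, with total counts as the only scaling it was 0.296 (log2 fold change -0.75), and with only the GFP and LMNB2 libraries in the fit it was 0.0985. MT-TR on the mitochondrial chromosome was at 4.85 ± 0.392 CPM of small RNA in GFP and 4.95 ± 0.0490 in LMNB2, with a log2 fold change of 0.03 (adjusted p = 0.954). The other copy with this identifier, at position 100050628 of chromosome 5, was at 0.0141 CPM in GFP. In ATAC the called member was at 2.22, 2.72 and 2.37 CPM in GFP and at 1.62, 1.28 and 1.14 in LMNB2, with a log2 fold change of -0.85 (SE 0.261, adjusted p = 0.86).

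With all libraries in the fit, the small RNA medians over all tested members were smaller than the spread of their levels between GFP libraries. The median log2 fold change of tested members was 0.26 with LMNA, 0.07 with LMNB1 and -0.18 with LMNB2. For standard tRNA genes it was 0.14, 0.07 and -0.20, and for all tested features -0.05, -0.05 and -0.04. With LMNB2 the median was -0.59 for other members and -0.17 for mitochondrial-like members. The medians of the tested members in the 3 GFP libraries had an SD of 0.518 (log2), and no such SD was computed for standard genes. The LMNB2 median of other members exceeded this SD. It was -0.17 where a mean of at least 10 counts was asked for and 0.09 without GFP replicate 3. With GFP replicate 3 left out, the member medians were 0.57 for LMNA, 0.49 for LMNB1 and 0.08 for LMNB2. Without GFP replicate 2 they were 0.16, -0.14 and -0.49, and without LMNB1 replicate 3 the LMNB1 median was -0.02. In LMNA 5 tested members had all 3 libraries above GFP and 0 below, where 4.16% and 5.34% of all features did. In LMNB1 4 lay above and 2 below (4.76% and 5.29%), and in LMNB2 1 above and 6 below (12.1% and 10.2%). The members with the lowest p in the other small RNA comparisons did not pass the adjustment. URS00006AD70A (chr7:133497720-133497837, inside EXOC4) was at 0.189, 0.213 and 0.231 CPM in GFP and 0.317, 0.359 and 0.415 in LMNA, without overlap (log2 fold change 0.74, SE 0.179, adjusted p = 0.742 by edgeR). tRX-Gln-NNN-3-1 (chr1:145563221-145563342), a glutamine-like gene, was at 0.498, 0.375 and 0.406 CPM in GFP and 0.477, 0.967 and 0.876 in LMNB1 (log2 fold change 0.85, SE 0.221, adjusted p = 0.703), where replicate 1 lay within the GFP range.

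**Figure D4:**
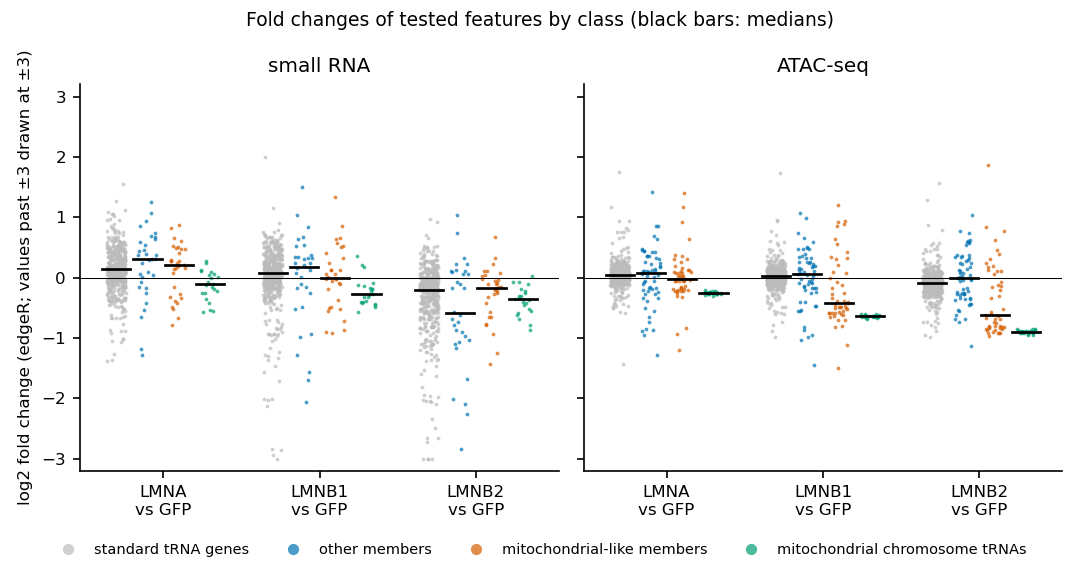
Log2 fold change (vertical axis, edgeR) of each tested feature against GFP in small RNA (left) and ATAC-seq (right) for the 3 lamins (horizontal axis), by class, with values beyond 3 drawn at 3 and black bars for medians. In ATAC the medians of the mitochondrial-like members and of the mitochondrial chromosome tRNAs lie under 0 with LMNB1 (-0.42 and -0.64) and LMNB2 (-0.61 and -0.89), with 14 of 49 mitochondrial-like members above 0 in each, while the medians of other members and standard genes stay around 0.

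In ATAC the 2 kinds of member differed in their medians. For mitochondrial-like members the median log2 fold change was -0.02 with LMNA, -0.42 with LMNB1 and -0.61 with LMNB2, and for other members 0.08, 0.05 and 0.0018. Standard genes were at 0.04, 0.03 and -0.09, and all windows at -0.0013, -0.0017 and -0.0034. The 22 mitochondrial chromosome tRNAs were at -0.25, -0.64 and -0.89, with 22 of 22 negative in each. All 3 LMNB2 libraries lay below all 3 GFP libraries for 23 of 109 tested members, 21 of them mitochondrial-like (4.72% of all windows), and 5 lay above (5.59%). With LMNB1 18 lay below, 15 of them mitochondrial-like (3.84%), and 5 above (4.62%), and with LMNA 6 below (4.74%) and 5 above (4.81%). Windows of neighbouring members overlap, as at the start of chromosome 1, so the same fragments can count for more than 1 member. The share of ATAC counts on the mitochondrial chromosome moved in the same order, from 39.9 to 47.5% in GFP to 24.5 to 30.7% in LMNB2. This share is of totals that include the counts over the overexpressed gene (13.4 to 17.5% in LMNB2). The part of either in these values was not tested. Scaled on windows outside that chromosome, the medians of mitochondrial-like members were -0.03, -0.39 and -0.60. They depended on single libraries and on the filter, which changes the members tested. Leaving out each library in turn, they ran from -0.23 to 0.19 with LMNA, -0.46 to -0.24 with LMNB1 and -0.62 to -0.28 with LMNB2. The LMNB2 median was -0.28 without GFP replicate 2, -0.35 without LMNA replicate 1, -0.41 without LMNB1 replicate 2 and -0.32 without LMNB1 replicate 3. For LMNB1, leaving out GFP replicate 2 gave -0.26 and leaving out LMNB1 replicate 3 gave -0.24. With no count filter the medians were 0.03, -0.22 and -0.13, and with total counts only 0.06, -0.23 and -0.49.

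The 5 members at the start of chromosome 1 show this library by library. The GFP libraries had summed ATAC levels of 1941, 2734 and 2558 CPM and the LMNA libraries of 1820, 2391 and 2147 CPM. The LMNB1 sums were 1669, 1627 and 1477 CPM and the LMNB2 sums 1243, 1619 and 1164 CPM. All LMNB1 and LMNB2 libraries lay below all GFP libraries, and LMNA overlapped GFP. None of the 5 passed the adjustment, as for ENSPTRG00000042655.1 with LMNB2 (log2 fold change -0.82, SE 0.163, adjusted p = 0.764 by edgeR).

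**Figure D5:**
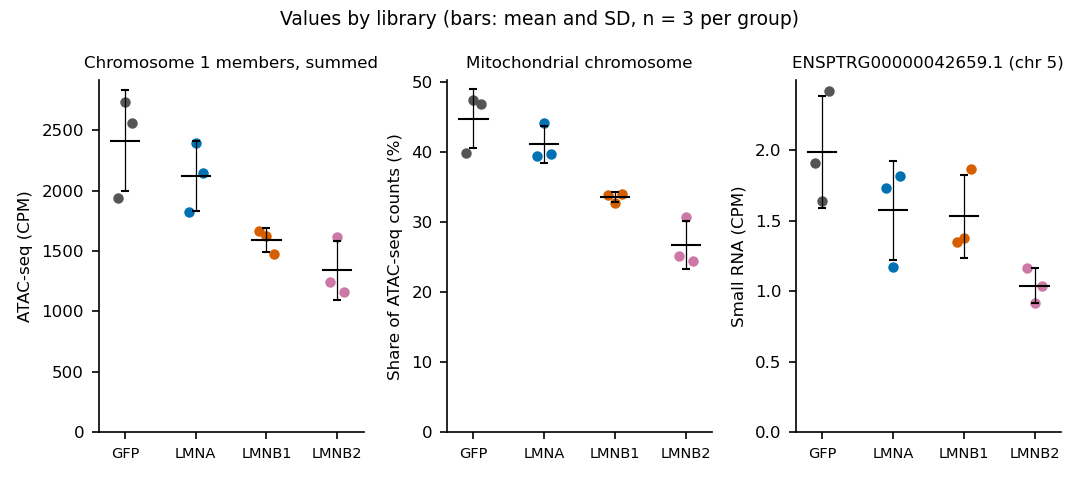
Values in each library (points) with the mean and SD of each group (bars, n = 3): summed ATAC-seq CPM of the 5 chromosome 1 members (left), share of ATAC-seq counts on the mitochondrial chromosome in % (middle) and small RNA CPM of ENSPTRG00000042659.1 (right), each axis from 0. The first 2 panels fall in the same order of groups, and the LMNB2 libraries of the third lie under the lowest GFP library at 1.64 CPM.

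The members with the lowest p in each ATAC comparison did not pass the adjustment either. URS00006A6DD2 was at 0.960, 0.950 and 0.723 CPM in GFP and at 1.03, 1.35 and 1.19 in LMNA, above all GFP libraries (log2 fold change 0.44, SE 0.139, adjusted p = 0.809 by edgeR), and its small RNA in LMNA had a log2 fold change of 0.69 (SE 0.286, adjusted p = 0.895). URS00006B2984 (chr5:100048891-100049009, minus strand), mitochondrial-like, was at 1.12, 1.79 and 1.44 CPM in GFP and 0.899, 0.963 and 0.575 in LMNB1 (log2 fold change -0.82, SE 0.199, adjusted p = 0.978). URS00004658BE (chr14:32484787-32484902, plus strand, inside AKAP6), mitochondrial-like, was at 1.17, 1.24 and 1.15 CPM in GFP and 0.674, 0.755 and 0.608 in LMNB2 (log2 fold change -0.79, SE 0.175, adjusted p = 0.682), without overlap. Its window stood 82.8 times above its flanks in GFP.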

How the data were processed

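The deposited tables hold raw counts, whole numbers per feature and library, as the authors made them: small RNA counts over annotated non-coding features, and ATAC counts over the same features widened by 125 bp, and over flanks of 500, 5000 and 50000 bp that start outside the window. The genome build is GRCh38, per the submitters' processing notes. Which aligner and counting tool were used, whether strand was, the treatment of reads that map to several places and of duplicates, and any shift of ATAC reads are not given in the sources used here. These set how overlapping, antisense and copied features share counts. Groups and replicates were taken from the titles, and the batch number in the labels is 1 value per assay.

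Features kept by filterByExpr were scaled by TMM, and 1 model per assay (edgeR 4.0.16 in R 4.3.3) took 1 coefficient for each group over the 12 libraries. The quasi-likelihood fit was robust, log2 fold changes used a prior count of 2, and Benjamini-Hochberg adjustment ran over every feature tested. CPM used TMM-scaled totals. Window to flank ratios used mean CPM per length over the libraries of a group. RefSeq tables (GRCh38.p14) gave gene spans, pseudogenes and sequences, and matched 1 member's full body. The fit was tested on simulated counts. Counting limits for a count of 0 are 3 counts per library. Named members are the 6 highest per kb in GFP in each assay, every called member, the member with the lowest p in each lamin comparison and the 3 tRNA-Und genes. The members, lists and tests were chosen with earlier results of these data known, and the split into mitochondrial-like and other members was chosen after seeing the data. Alternatives were other scalings, filters and thresholds, the test of DESeq2 1.42.0, fits restricted to the 2 groups compared, a replicate block and leaving out each library.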

Additional observations from a re-analysis of the deposited data

How the results depend on the processing

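The counts of called members depended on the filter, the tool and the scaling, and the cause was not tested. In small RNA, with no count filter 1 of 183 members was called with LMNA (0.0737% of all features), 2 with LMNB1 (0.0843%), 8 with LMNB2 (1.16%) and 5 in the joint test (1.11%). For LMNB2 there were 2 at an adjusted p under 0.10 (5.84%), 2 with DESeq2 (2.81%) and 0 with only the libraries compared (0.0742%), and in the joint test 4 with DESeq2 (6.63%) and 4 with only the libraries compared (12%). In ATAC, with total counts as the only scaling 4 were called with LMNB1 (0.0672% of all windows), 7 with LMNB2 (0.0604%) and 5 in the joint test (0.058%), DESeq2 called 1, 6 and 7 (0.0379%, 0.0708% and 1.03%), and a fit of only the libraries compared called 10 of 73 with LMNB2 (0.0426%). Every member called in ATAC under an alternative was mitochondrial-like. Total counts alone moved the median of all features by 0.16 (log2) with LMNB1 and 0.23 with LMNB2 in small RNA and by 0.19 and 0.11 in ATAC, and the members' ATAC median with LMNB1 to 0.0661. Leaving out each library in turn, small RNA calls ran from 0 to 2 with LMNA, 0 to 5 with LMNB2 and 0 to 1 in the joint test. The 2 came without GFP replicate 1 (0.0267% of all features). The 5 came without GFP replicate 3 (7.81% of tested members, 5.82% of all features). The joint test had 1 there (6.16%) and 1 without LMNB1 replicate 1 (0.799%). ATAC calls ran from 0 to 1 with LMNB2 (without LMNA replicate 1, 0.0042% of windows). In the joint test they ran from 0 to 3 (3 without LMNB1 replicate 3, 0.672%). Without GFP replicate 1, tRX-Tyr-NNN-1-1 and URS00006A6DD2 were called as higher with LMNA (1.67 and 1.23, log2) and with LMNB2 (1.48 and 0.77). With LMNB2 3 of 67 members were called there (4.48%), against 3.71% of all features. Without GFP replicate 3, tRX-Cys-NNN-4-1 was called as lower with LMNB2 (-0.89), as 1 of the 5 members called there. Medians ran from 0.16 to 0.57, -0.14 to 0.49 and -0.49 to 0.08 in small RNA and from -0.09 to 0.11, -0.11 to -0.02 and -0.16 to -0.04 in ATAC for LMNA, LMNB1 and LMNB2. Members detected in GFP ran from 23 to 29 and members above their flanks from 48 to 52. At 5 CPM 11 members and 238 standard genes were detected, and at 1.5 times the flanks 70 members stood above. The mitochondrial-like set held 138 members at 200 bp and 149 at 5000 bp (chosen after seeing the data, as was the minimum of 10 counts for windows). With the replicate number as a block, 2 members were called in small RNA with LMNB2 (2.15% of all features) and 0 in ATAC. Over all windows the block raised ATAC calls from 1 to 60 with LMNA and from 150 to 553 in the joint test. With LMNB1 and LMNB2 there were 4 each, against 5 and 4 without it. Same-numbered libraries correlated at -0.04 to 0.23 in small RNA and -0.08 to 0.19 in ATAC. The correlation was over 0.1 in 2 of 18 pairs each, with 7 of 12 libraries closest to their own number. A pairing of the samples by number was neither shown nor excluded. The adjusted p of ENSPTRG00000042659.1 with LMNB2 ran from 0.00088 to 0.296 over all alternatives. Members with few counts are limited by depth: 77 had no small RNA count in any library.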
